A study of Mus musculus with 6 samples.

Results

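The genes described here encode the adhesion receptors of platelets, together with von Willebrand factor and P-selectin. Members were all array probes whose gene name is Gp1ba, Gp1bb, Gp9, Gp5, Gp6, Itga2b, Itgb3, Vwf or Selp, which gave 12 probes for 9 genes among 55681 probes on the array. The cells were erythroid progenitors isolated from the fetal liver of E-14.5 mouse embryos. They received, by retrovirus, a short hairpin RNA against Exosc8 in 3 samples (shExosc8) or against luciferase, which mouse cells lack, in 3 samples (shControl). Exosc8 is a core subunit of the RNA exosome, the complex that trims and degrades RNA from its 3' end, and the series set out to find genes it regulates. Both groups were kept for 3 days in medium with erythropoietin, dexamethasone and kit ligand and matured along the red cell path. The labels do not state the mouse strain, the number of Exosc8 hairpins or any selection of infected cells. They also leave unsaid whether the replicates are separate litters or cultures. The p-values therefore cover the spread among these 6 samples alone, which may be technical.

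Platelets adhere to a damaged vessel wall through receptors made in their parent cell, the megakaryocyte, which shares a progenitor with red cells. The GPIb-IX-V complex, made of the products of Gp1ba, Gp1bb, Gp9 and Gp5, catches von Willebrand factor under flow. Glycoprotein VI (Gp6) binds collagen and signals into the platelet, and integrin αIIbβ3, made of the products of Itga2b and Itgb3, then binds fibrinogen and von Willebrand factor. P-selectin (Selp) is held in granules with von Willebrand factor and moves to the surface upon activation, where it binds leukocytes. Endothelial cells also make von Willebrand factor and P-selectin.

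Values are given as scaled signal, the processed brightness of a probe in percent of the 75th percentile of its array, taken over 21615 probes well above background on all 6 arrays. Signals of different probes are not comparable with each other. Fold changes and adjusted p-values come from limma over 18228 genes, each represented by its probe with the highest mean, adjusted by Benjamini-Hochberg and called below 0.05. Of these genes 5439 (29.8%) were called in either direction, 2923 of them (16%) higher and 2516 (13.8%) lower in shExosc8. The share of higher genes among those called was 53.7%, and it was 37.1% with the percentile taken over all probes, 66.9% with normexp background correction before the same scaling and 18.0% with no normalization between arrays. These scalings put the median of all genes at -0.06, -0.21, 0.04 and -0.56 on the log2 scale, in the same order. Exosc8 itself stood at 138, 137 and 197% in shExosc8 arrays 1, 2 and 3, against 337, 335 and 355% in the shControl arrays (log2 fold change -1.14, adjusted p = 0.00554).

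All 9 genes were higher in shExosc8 cells, by 3.20-fold to 15.2-fold, and all 9 passed the test, against 16% of all genes called higher and 29.8% called in either direction. All 9 were well above background on all 6 arrays, so none passed the filter on dim probes through 1 group alone. In each of the 9 the 3 shExosc8 arrays lay above the 3 shControl arrays, which holds for 23.2% of all genes tested, while 51.6% have groups that do not overlap in either direction. At least 4-fold higher were 8 of the 9, against 668 of all genes (3.66%). At least 8-fold higher were 5 of the 9, against 223 of all 18228 genes, which were also called. Among these 5, Selp and Gp6 stood below 8-fold with normexp background correction. With no normalization between arrays Itgb3 (7.15-fold), Gp6 (log2 2.98) and Selp (log2 2.54) stood below 8-fold, and Gp1ba (3.24-fold) below 4-fold. Selp was also below 8-fold with the percentile over all probes (log2 2.90). The median log2 fold change of the 9 was 3.04, against -0.06 over all genes. In bulk RNA, more cells of a type and more RNA per cell cannot be told apart. An exact permutation test of 3 against 3 arrays can give no p below 0.1, so single genes are read from the fit across all genes.

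**Figure D1:**
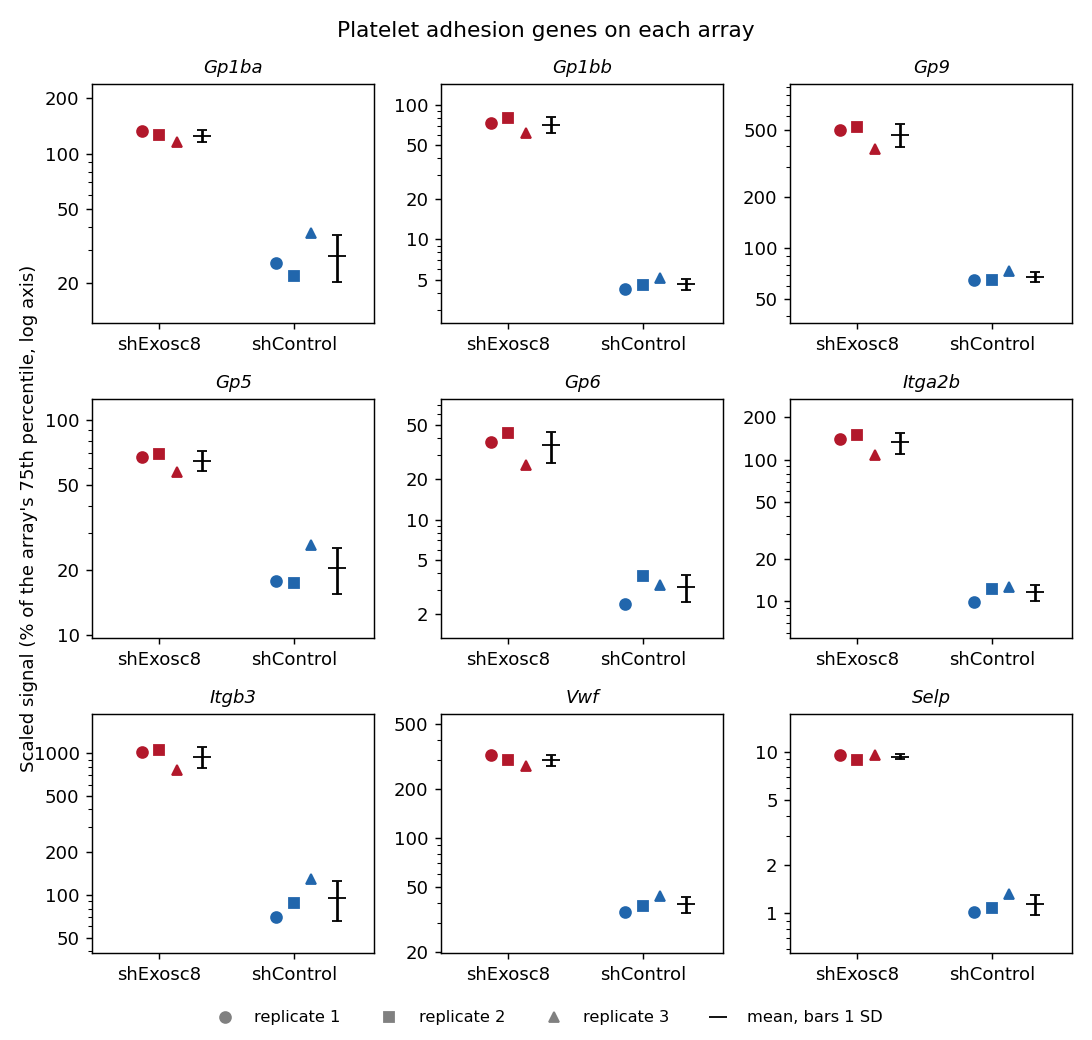
Scaled signal (percent of the array's 75th percentile, log axis) of the 9 genes on each shExosc8 and shControl array, with the mean and 1 SD of each group (n = 3). In every panel the 3 shExosc8 points lie above the 3 shControl points, with the narrowest gap in Gp5.

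The sequences behind the largest rise and behind the integrin subunit are shown first, because the 3 Gp1bb probes differed and the other genes rest on 1 probe each or, for Itgb3, on 2. Both were read from the deposited files and are written 5' to 3' in the transcript's sense. The Gp1bb probe lies at chr16:18621107-18621166 of mm9 on the minus strand. It consists of 80.0% G and C, more than in 99.9% of probes on the array. The Itga2b probe lies at chr11:102319453-102319661 of mm9 on the minus strand, and since its 60 bases span 209 bases of genome it crosses a splice junction.
Gp1bb probe: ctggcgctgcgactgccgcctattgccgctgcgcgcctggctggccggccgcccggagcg
Itga2b probe: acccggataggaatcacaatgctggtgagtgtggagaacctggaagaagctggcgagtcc

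Because the genes moved together, the 250 bases before their starts were searched for GGAAG, a core of sites for ETS family factors such as Fli1, and for GATAA, a core of sites for GATA factors, on both strands (CTTCC and TTATC on the other). RefSeq promoters (GRCm38.p6) were matched for 7 of the 9 genes: Gp1ba, Gp1bb, Gp9, Gp5, Gp6, Itga2b and Selp. GGAAG was found in 6 of the 7, against 64.1% of 32851 promoters of the same length, and GATAA in 4, against 22.6%. Both were found in Gp1ba, Gp9 and Gp5, 3 of the 7, against 13.2% of all promoters. A match is a stretch of letters, not a shown binding site. Other sequences that these factors may bind were not searched for, so a promoter without a match may still hold a site. The promoters with both motifs are printed with those of Gp1bb and Itga2b, the genes with the largest folds, which hold 2 and 4 copies of GGAAG and none of GATAA. Capitals mark the motifs, and each sequence runs 5' to 3' toward the start of its gene. In order, they cover chr11:70638872-70639121 on the plus strand, chr6:87777820-87778069 on the plus strand, chr16:30310782-30311031 on the minus strand, chr16:18622404-18622653 on the minus strand and chr11:102469884-102470133 on the minus strand of GRCm38.p6.
Gp1ba: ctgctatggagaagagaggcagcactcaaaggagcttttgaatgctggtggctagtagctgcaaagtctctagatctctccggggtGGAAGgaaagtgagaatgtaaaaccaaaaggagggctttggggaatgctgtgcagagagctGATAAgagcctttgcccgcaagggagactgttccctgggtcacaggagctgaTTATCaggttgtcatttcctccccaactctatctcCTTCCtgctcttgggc
Gp9: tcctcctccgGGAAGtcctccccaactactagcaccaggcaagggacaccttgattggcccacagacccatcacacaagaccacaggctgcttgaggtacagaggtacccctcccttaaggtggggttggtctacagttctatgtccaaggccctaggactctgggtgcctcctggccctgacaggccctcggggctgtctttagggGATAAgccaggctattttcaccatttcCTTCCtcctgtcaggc
Gp5: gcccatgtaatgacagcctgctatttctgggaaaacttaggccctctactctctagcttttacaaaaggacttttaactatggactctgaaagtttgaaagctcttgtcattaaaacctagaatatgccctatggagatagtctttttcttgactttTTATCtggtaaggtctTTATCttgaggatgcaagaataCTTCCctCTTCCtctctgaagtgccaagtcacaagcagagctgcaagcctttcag
Gp1bb: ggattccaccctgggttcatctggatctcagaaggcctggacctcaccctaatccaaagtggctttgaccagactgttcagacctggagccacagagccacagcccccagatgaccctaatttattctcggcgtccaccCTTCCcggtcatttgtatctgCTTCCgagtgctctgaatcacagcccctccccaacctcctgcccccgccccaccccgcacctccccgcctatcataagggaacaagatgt
Itga2b: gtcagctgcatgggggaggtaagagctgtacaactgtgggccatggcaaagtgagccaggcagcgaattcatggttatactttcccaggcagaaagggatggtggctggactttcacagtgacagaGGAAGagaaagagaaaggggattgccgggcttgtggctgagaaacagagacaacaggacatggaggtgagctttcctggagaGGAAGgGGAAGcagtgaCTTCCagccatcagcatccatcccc

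The 4 subunits of the GPIb-IX-V complex all rose, by unequal amounts. Gp1bb, the disulfide-linked beta chain of GPIb, had 72.8, 79.7 and 61.2% in shExosc8 arrays 1, 2 and 3, against 4.30, 4.57 and 5.17% in the shControl arrays. Its lowest shExosc8 array was 11.8 times its highest shControl array, and the fold change was 15.2 (95% interval 12.02 to 19.18, adjusted p = 0.000343). Gp9, which encodes glycoprotein IX and is needed to bring the complex to the surface, had 499, 521 and 387% in shExosc8 arrays, against 65.4, 65.1 and 73.5% in shControl arrays. This was a 6.85-fold rise (5.37 to 8.75, adjusted p = 0.000343), with shExosc8 replicate 3 the lowest of its group. Gp1ba, the chain that binds von Willebrand factor, had 133.5, 127 and 116% in shExosc8 arrays, against 25.4, 21.7 and 37.1% in shControl arrays. It rose 4.58-fold (3.23 to 6.49, adjusted p = 0.00153), and shControl replicate 3 stood above the other 2 controls. Gp5, whose product is loosely held in the complex and is cut by thrombin, had 67.6, 69.9 and 57.2% in shExosc8 arrays, against 17.9, 17.4 and 26.3% in shControl arrays. Its rise was 3.20-fold (2.33 to 4.41, adjusted p = 0.00269), and its groups lay closest together, with the lowest shExosc8 array 2.17 times the highest shControl array.

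Differences between subunits of 1 complex were taken within each array, which cancels the scaling of the array. Relative to Gp5, Gp1bb rose 4.74-fold more, Gp9 2.14-fold more and Gp1ba 1.43-fold more. Relative to Gp1ba, Gp1bb rose 3.31-fold more and Gp9 1.495-fold more, and Gp1bb rose 2.22-fold more than Gp9. In all 6 pairs the 3 shExosc8 differences lay apart from the 3 shControl differences, for example at 0.11, 0.19 and 0.10 in shExosc8 arrays, against -2.06, -1.93 and -2.35 in shControl arrays, for the log2 difference of Gp1bb from Gp5. Each of the 6 gave the smallest p an exact two-sided permutation test allows here, 0.1 (0.117 adjusted over the 7 pairs compared), so none can pass the threshold. The pairs share genes and are not independent. Among single genes 51.6% have groups that do not overlap, and the share for other pairs of genes was not computed. The Gp1bb differences rest on its brightest probe (15.2-fold), while its other tested probe rose 5.76-fold. Probes differ in how linearly they report an amount, and whether that bears on these differences was not tested.

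Gp1bb was the gene whose probes disagreed. The other of its probes that could be tested, at chr16:18621717-18621776 of mm9 and annotated to another RefSeq transcript of the gene, had 2.60, 3.77 and 2.44% in shExosc8 arrays, against 0.693, 1.16 and 0.155% in shControl arrays. It rose 5.76-fold (1.74 to 19.0, adjusted p = 0.0435 with each probe tested on its own), was below background in shControl replicate 3, and lost its call in 6 of 15 processing alternatives, 4 of them fits that left out 1 array. The third probe, at chr16:18621535-18621594, was well above background on 0 of 3 shExosc8 and 1 of 3 shControl arrays and was not tested. In the RefSeq gene table (GRCm38.p6) Gp1bb overlaps Septin5, a septin gene, by 593 bases. The Septin5 probe averaged 1.93% in shExosc8 and 1.65% in shControl (log2 fold change 0.34, adjusted p = 0.442) and did not pass.

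Gp6, the collagen receptor, had 37.6, 43.6 and 25.3% in shExosc8 arrays, against 2.38, 3.82 and 3.28% in shControl arrays. The fold change was 11.2 (7.22 to 17.3, adjusted p = 0.00074). Among the shExosc8 arrays replicate 3 was the lowest, yet it lay 6.64 times above the highest shControl array. Of 13 tested genes on a list for signalling of glycoprotein VI and CLEC-2, 8 rose and 0 fell, with a median log2 fold change of 1.02. Over all genes 16% were called higher and 13.8% lower. With the slide column as a block 4 of the 13 were called. Fcer1g, the gamma chain that pairs with glycoprotein VI and signals for it, averaged 196 ± 22.0% in shExosc8 and 24.8 ± 3.45% in shControl (SD, n = 3 each), a 7.95-fold rise. Clec1b, which encodes the podoplanin receptor CLEC-2, was 17.4-fold higher and Lat, an adaptor of this pathway, 6.30-fold higher. Lcp2, Plcg2 and Pecam1 were also called, and lost their calls when 1 array was left out, for 5, 5 and 4 of the 6 arrays. Lcp2 was above background on 1 of 3 shControl arrays. Where only probes well above background on all 6 arrays were kept, 7 genes of this list were called. Vav1 (0.50), Lyn (0.91), Pik3cb (0.28), Btk (-0.17) and Fyn (0.21) did not pass.

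The subunits of integrin αIIbβ3 rose by like amounts. Itga2b, the alpha chain made by megakaryocytes and early blood progenitors, had 141, 150.4 and 108% in shExosc8 arrays, against 9.88, 12.3 and 12.7% in shControl arrays. It rose 11.4-fold (8.57 to 15.2, adjusted p = 0.000343). Itgb3, the beta chain, had 1016, 1053 and 761% in shExosc8 arrays, against 69.7, 87.5 and 129% in shControl arrays. It rose 10.1-fold (6.60 to 15.5, adjusted p = 0.000771), and its controls spread more than those of Itga2b. A further Itgb3 probe, at chr11:104528625-104528684 of mm9, had 27.2, 29.1 and 19.9% in shExosc8 arrays, against 1.38, 2.35 and 2.03% in shControl arrays. It gave a rise of 13.4-fold (8.89 to 20.1, adjusted p = 0.000577 with each probe tested on its own), so the probes of this gene moved the same way. The difference between the rises of Itga2b and Itgb3 was 0.18 on the log2 scale, and the within-array differences of the groups overlapped (exact two-sided permutation p = 0.5).

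Of 13 tested genes on a list of integrin activation and partners, 5 rose and 2 fell, with a median log2 fold change of 0.24. The list also holds chains of other integrins, Itga6, Itga5 and Itgb1 among them. Of all genes 16% were called higher and 13.8% lower, and 2 of 13 is near the latter share. With the slide column as a block 2 of the 13 were called, and without shExosc8 replicate 3, 10 were. Rasgrp2, the exchange factor that switches on Rap1, averaged 120.1 ± 15.4% in shExosc8 and 14.6 ± 4.91% in shControl (SD), an 8.49-fold rise, and Rap1b, the main Rap1 of platelets, rose 3.34-fold. Itga6, the laminin receptor chain, rose 8.95-fold. Apbb1ip, which encodes the Rap1 effector RIAM, fell by 0.93 on the log2 scale and Itga5, a fibronectin receptor chain, fell by 0.98, and each lost its call for 4 of the 6 arrays left out in turn. The direct activators talin (Tln1, 0.44) and kindlin-3 (Fermt3, 0.24) did not pass, nor did the beta chain Itgb1 (-0.25). Itga2, Rap1a and Src were each well above background on 1 of 6 arrays and were not tested.

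Vwf, the ligand of GPIb, had 323, 300.3 and 276% in shExosc8 arrays, against 35.2, 38.3 and 44.0% in shControl arrays. The fold change was 7.66 (6.20 to 9.47, adjusted p = 0.000343), and the arrays of each group lay close together. Of 14 genes on the list of adhesive ligands and selectin partners only 7 were measured above background, and of these 4 rose and 0 fell. The shares over all genes were 16% called higher and 13.8% called lower. Thbs1, which encodes the granule protein thrombospondin, rose 17.5-fold and fibronectin (Fn1) 3.91-fold. The fibrinogen chain gene Fgb was called at 3.56-fold, was above background on 1 of 3 shControl arrays, and lost its call for 3 of the 6 arrays left out in turn. The other fibrinogen chains Fga and Fgg, vitronectin (Vtn), the collagens Col1a1 and Col3a1 and the von Willebrand factor protease gene Adamts13 were not tested, being above background on 0 to 2 of the 6 arrays.

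Selp, the gene of P-selectin, was represented by 1 probe printed in 10 spots, of which 9 were usable on each shExosc8 array and 10 on each shControl array. The averaged signal was 9.56, 8.91 and 9.56% in shExosc8 arrays, against 1.02, 1.07 and 1.33% in shControl arrays. Single spots ranged between 8.32 and 10.9% in shExosc8 arrays and between 0.695 and 1.49% in shControl arrays, so no spot of one group reached the other. The rise was 8.24-fold (6.62 to 10.3, adjusted p = 0.000343). Spots of 1 array varied by a coefficient of variation of 4.64 to 7.75% in shExosc8 and 9.73 to 18.7% in shControl. Selplg, the leukocyte ligand of P-selectin, was at 0.52 on the log2 scale (adjusted p = 0.164) and did not pass. The gene of E-selectin, Sele, the other selectin of the endothelium, was above background on 0 of 6 arrays.

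The 9 rises formed a continuous order. From the largest they ran Gp1bb, Itga2b, Gp6, Itgb3, Selp, Vwf, Gp9, Gp1ba and Gp5, and the 95% intervals of every pair of neighbours in that order overlapped. Among all 18228 genes sorted by fold change, Gp1bb stood at rank 67 and Gp5 at rank 1020. Within the shExosc8 group replicate 3 was the lowest array for 8 of the 9 genes, and it was also the array with the highest Exosc8 signal. Within the shControl group replicate 3 was the highest array for 8 of the 9. The 9 genes moved together and are not independent, and the shares of all genes with these orders are not given here. Without shExosc8 replicate 3, 8418 of all genes were called instead of 5439, so this array differed beyond the 9. Whether these array differences share a source was not tested.

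**Figure D2:**
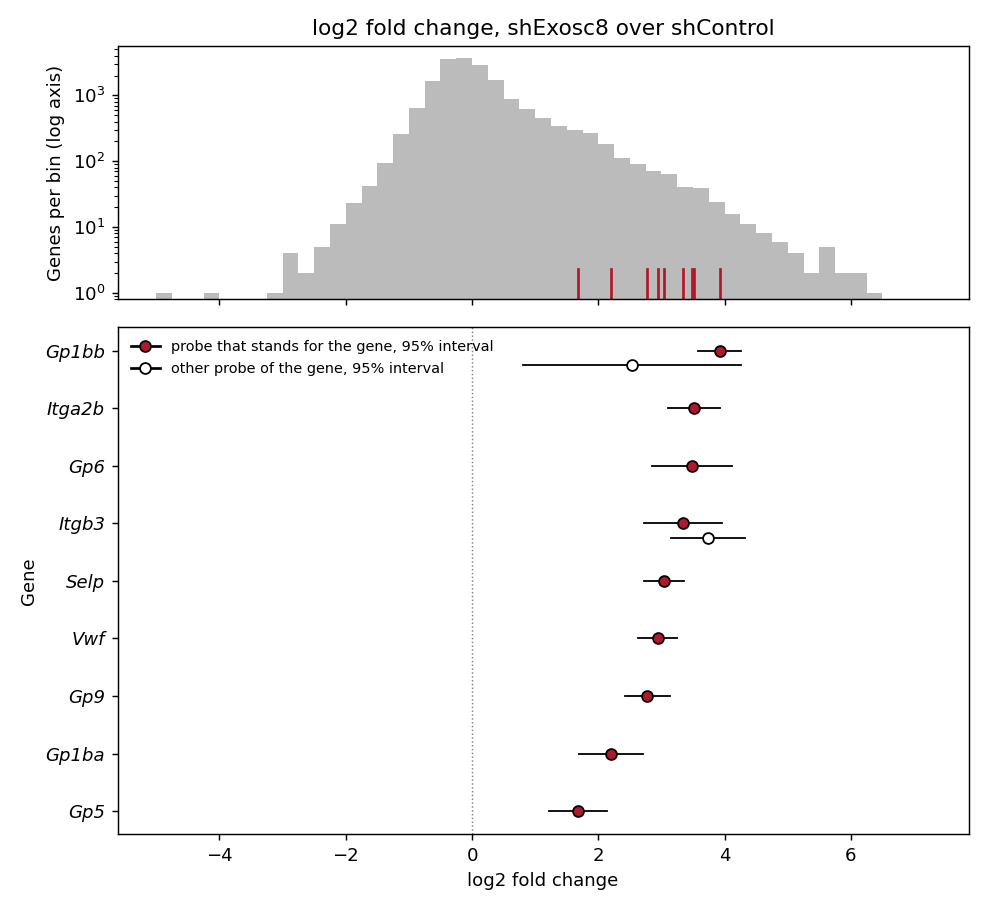
Upper panel, the number of genes per bin of log2 fold change (shExosc8 over shControl, log axis) over 18228 genes, with short red lines at the 9 platelet adhesion genes. Lower panel, log2 fold change with its 95% interval for the 11 tested probes of these genes, filled where the probe stands for the gene. All intervals lie above 0, and the widest belongs to the Gp1bb probe that does not stand for its gene.

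No processing alternative removed the call of any of the 9 genes. Adjusted p stayed at or below 0.0392 in 17 alternatives, the highest being that of Gp5 with the slide column as a block. With each probe tested on its own, the Gp5 probe missed the threshold in that fit (adjusted p = 0.0526). With normexp background correction and the same scaling, Selp rose 4.44-fold instead of 8.24-fold and Gp6 7.69-fold instead of 11.2-fold. With normexp and quantile normalization together, Selp rose 3.86-fold (log2 1.95, adjusted p = 0.000161) and Gp6 6.90-fold. With the mean of its tested probes in place of the brightest, Gp1bb rose 9.36-fold instead of 15.2-fold. Each group filled a slide row of its own, so row and group cannot be told apart.

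**Figure D3:**
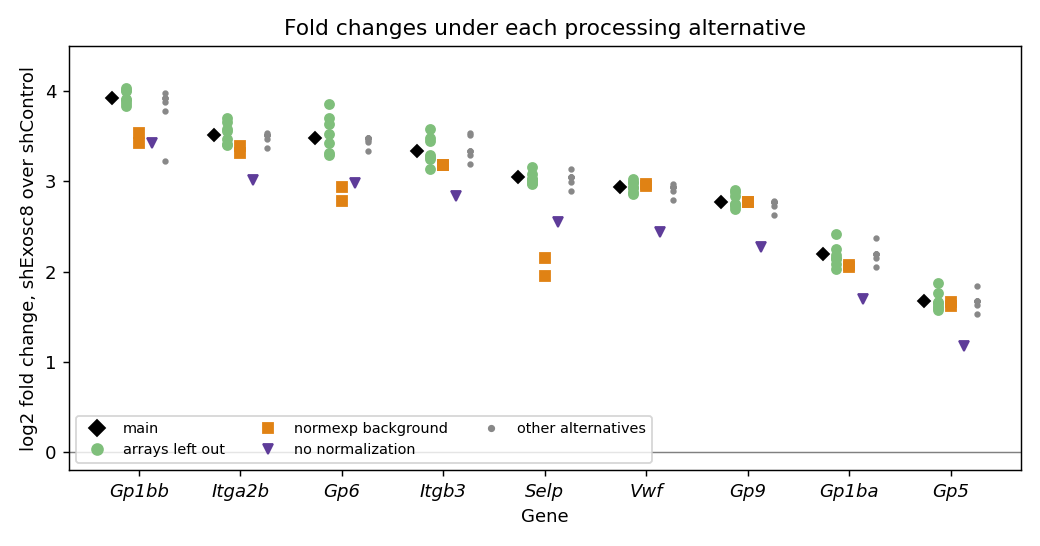
log2 fold change (shExosc8 over shControl) of each of the 9 genes in the reported processing (black diamonds) and under 17 alternatives, grouped by kind. All points lie above 0. The normexp values of Selp (1.95 and 2.15) lie clearly below its other values.

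In the authors' deposited table, 19 of the 21 spots of these genes had an adjusted p below 0.05, as did 1980 of 59305 spots overall (3.34%). The 2 others in the authors' deposited table were the 2 weaker Gp1bb probes, with log2 fold changes of 1.34 (adjusted p = 0.131) and 0.77 (adjusted p = 0.424). Of the 21 spots 10 are copies of the 1 Selp probe, so the 21 stand for only 12 probes. The authors' deposited table gave a log2 fold change of 3.65 for the main Gp1bb probe, 3.38 for Itga2b and 3.05 for Gp6. For the 10 Selp spots the authors' deposited table gave 2.16 to 2.64, below the 3.04 found here and above the 1.95 found with normexp and quantile normalization.

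Neighbouring genes in the RefSeq gene table were set beside the members. Of 20 nearest or overlapping neighbours 13 were on the array and 9 were tested, of which 2 rose and 0 fell. Over all genes 16% were called higher, and 2 of 9 is near that share. Among the neighbours F5, the gene of coagulation factor V, which platelets also store, lies 1808 bases from Selp. It averaged 41.4% in shExosc8 and 4.49% in shControl (log2 fold change 3.13, adjusted p = 0.0022). Slc25a11, only 32 bases from Gp1ba, stood at 352% in shExosc8 and 341% in shControl (0.04) and did not pass. The tested neighbours of Gp9 (Rab43, -0.15, and the pseudogene Gm5879, 0.10), Gp5 (Atp13a3, 0.22), Itga2b (Gpatch8, -0.12) and Itgb3 (Myl4, -0.00094) did not pass either.

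Other platelet genes rose as well. Over all genes 16% were called higher and 13.8% lower. Of 8 tested receptors for soluble platelet agonists 6 rose and 0 fell, with a median log2 fold change of 3.01. Where only probes well above background on all 6 arrays were kept, 4 receptors were called. F2rl3, among the 6, was above background on 1 of 3 shControl arrays. The 6 also included the ATP-gated channel P2rx1 (8.23-fold), the ADP receptor P2ry1 (5.08-fold) and the adrenaline receptor Adra2a (11.6-fold, above background on 2 of 3 shControl arrays). P2ry12 was above background on 2 of 3 shExosc8 and 1 of 3 shControl arrays and was not tested. Of 13 genes of granule cargo and granule formation 10 rose and 0 fell, with a median of 2.72, among them Pdgfb (9.44-fold), Mmrn1 (9.72-fold) and F13a1 (6.94-fold). Vps33b (0.12) and Vipas39 (-0.49), which sort proteins into granules, did not pass.

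Transcription factors of the megakaryocyte lineage moved less uniformly. Of 18 tested, 6 rose and 1 fell, with a median log2 fold change of 0.28. The shares over all genes were 16% higher and 13.8% lower. With the slide column as a block 1 of the 18 was called. Meis1, a homeobox factor, averaged 33.0 ± 4.31% in shExosc8 and 3.42 ± 1.67% in shControl (SD), a 10.3-fold rise. Mafk, a small Maf partner of Nfe2, rose 2.53-fold and Nfe2, which drives platelet release, 2.20-fold. Ldb1, an adaptor of GATA complexes, fell by 1.14 on the log2 scale. Fli1, the ETS factor named above, was called at 1.65 (adjusted p = 0.0186) but lost its call for 4 of the 6 arrays left out in turn, and Runx1 at 0.61 for 3 of 6. Gata1 (0.06), its cofactor Zfpm1 (0.05) and Gata2 (0.87) did not pass.

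**Figure D4:**
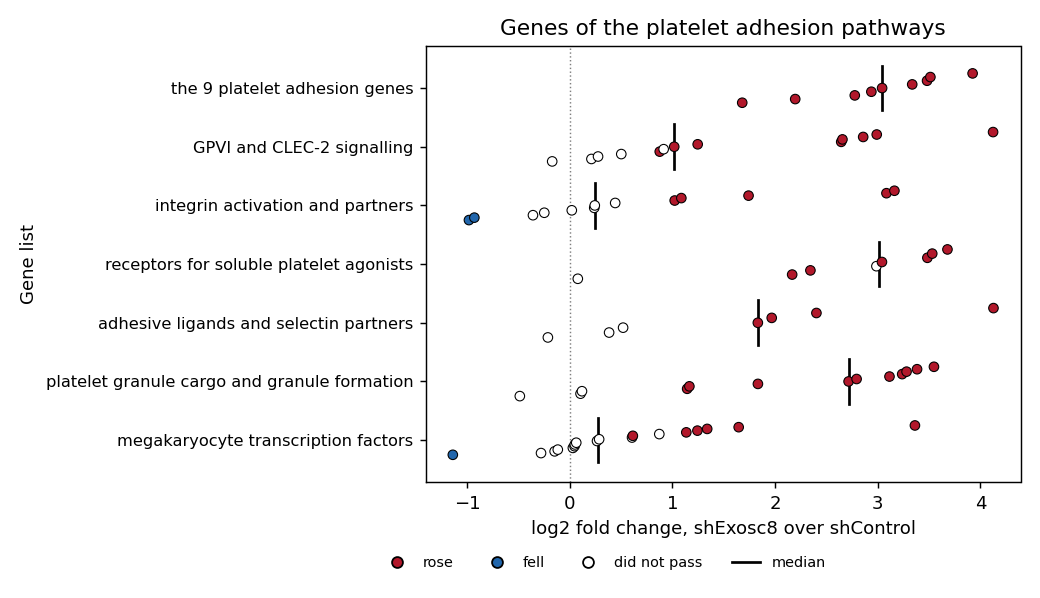
log2 fold change (shExosc8 over shControl) of each tested gene in the 9 platelet adhesion genes and in 6 related lists, coloured by call, with the median of each list as a bar. The adhesion genes and the agonist receptors have medians of 3.04 and 3.01. The transcription factors and the list of integrin activation and partners have medians of 0.28 and 0.24.

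Markers of several blood cell types moved beside the adhesion genes, and their part in the rises was not tested. Over all genes 16% were called higher and 13.8% lower. All 10 megakaryocyte markers outside the 9 genes were tested, 9 rose and 0 fell, and their summed signal was 5598 to 8329% in shExosc8 arrays, against 642 to 929% in shControl arrays. Such sums are led by their brightest probes, here Pf4, and without it the sum was 1645 to 2819% in shExosc8, against 256 to 367% in shControl. Of these 10 markers 6 are also in the lists above (Pf4, Ppbp, Mmrn1, Nbeal2, Clec1b and F2rl2). All 9 neutrophil markers rose (4443 to 6072%, against 1246.5 to 1553% in shControl). With the slide column as a block 6 of these 9 were called. Of 5 tested mast cell markers of 7, 4 rose and 0 fell (274 to 448% in shExosc8, against 91.0 to 130.4% in shControl), and 1 was called with that block. The median log2 fold change of the tested mast cell markers was 3.05, against 3.04 for the adhesion genes. Without Hdc, the brightest, the mast cell sum was 79.4 to 230% in shExosc8, against 16.5 to 20.7% in shControl. Of 4 tested macrophage markers of 9, 3 rose (66.5 to 98.5% in shExosc8, against 38.5 to 51.4% in shControl), and of 3 tested hepatocyte markers of 6, 2 rose (23.9 to 48.9% in shExosc8, against 8.37 to 18.5% in shControl). Both of these counts were 0 in limma without shExosc8 replicate 1, shExosc8 replicate 2 or shControl replicate 1, as was the macrophage count without shControl replicate 3 and the hepatocyte count without shControl replicate 2. At an unadjusted p under 0.05, at least 3 macrophage and 2 hepatocyte markers were found in every fit with 1 array left out. All 10 erythroid markers, the labelled cell type, were tested, of which 4 rose. Epor, the receptor gene for erythropoietin, fell by 0.58 on the log2 scale and lost its call for each of the 6 arrays left out in turn. Of the 10 erythroid markers, 2 were called without shExosc8 replicate 1, 3 without shExosc8 replicate 2 or shControl replicate 1, and 9 without shExosc8 replicate 3. With the slide column as a block limma called 0 of them, and 5 had an unadjusted p under 0.05. Their summed signal was 38586 to 61585% in shExosc8 arrays, against 29377 to 35039% in shControl arrays.

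Endothelial markers were read apart, since endothelial cells make von Willebrand factor and P-selectin. Of 14 on the array 7 were tested, of which 3 rose and 2 fell, against 16% higher and 13.8% lower over all genes. With the slide column as a block limma called 0 of the 7, and 4 had an unadjusted p under 0.05. The endothelial genes Egfl7 and Kdr were well above background on all 6 arrays and did not pass. Egfl7 averaged 279% in shExosc8 and 250.01% in shControl, and Kdr averaged 116% in shExosc8 and 96.2% in shControl. The summed signal was 436 to 509.7% in shExosc8 arrays, against 349 to 445% in shControl arrays, and without Egfl7, its brightest probe, 154 to 215% in shExosc8 against 135 to 144% in shControl. Cdh5, Emcn, Robo4, Erg and Sox17 were above background on 0 of 6 arrays, Tie1 on 1 and Tek on 3. Those that rose were Esam (11.6-fold) and Pecam1 (1.84-fold), which platelets also carry, and Flt1 (3.36-fold), while Eng fell by 0.96 and Plvap fell by 1.04 on the log2 scale.

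**Figure D5:**
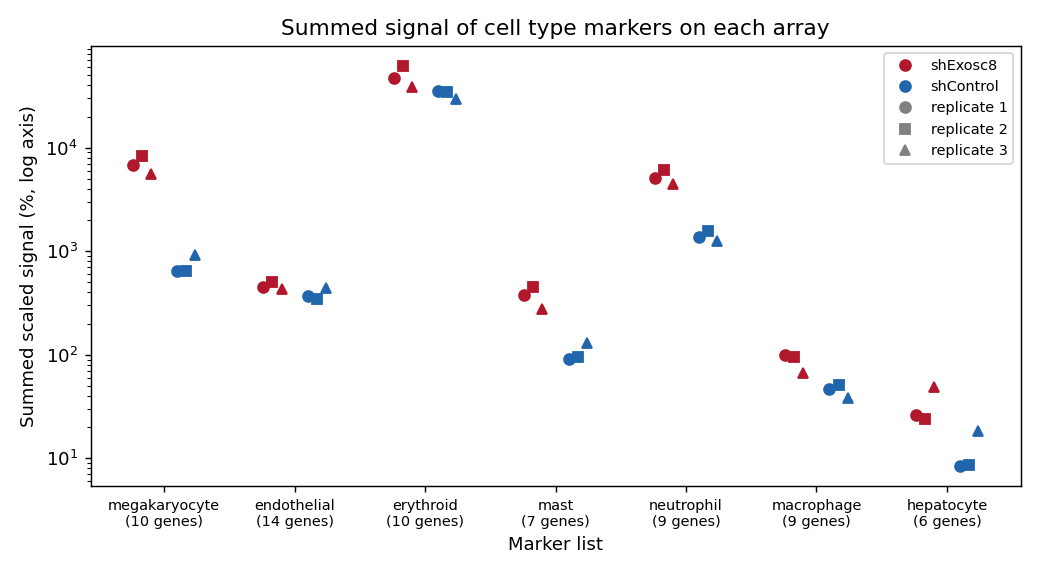
Summed scaled signal (percent, log axis) of 7 lists of cell type markers on each shExosc8 and shControl array. The megakaryocyte sum lies at 5598 to 8329 in shExosc8 and 642 to 929 in shControl, and the endothelial sums of the groups overlap through Egfl7 in shControl replicate 3.

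The genes most like the 9 were sought by the root mean square distance, over the 6 arrays, between a gene's log2 differences from the control mean and the median of those differences over the 9. Distances of the 9 themselves ran between 0.030 for Selp and 0.964 for Gp5. The closest other genes with a RefSeq symbol were Cdc42ep5 (0.132), Gcsam (0.133), Fcer1g (0.139), P2rx1 (0.141) and Dennd2d (0.143), farther than Selp and Vwf (0.088) and nearer than the other 7 of the 9. Cdc42ep5 had 20.7, 19.8 and 16.0% in shExosc8 arrays, against 2.32, 2.27 and 2.62% in shControl arrays. Since the profile mostly consists of the difference between the groups, likeness here is mainly a rise of the same size.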

How the data were processed

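RNA from 6 samples was hybridised to single-colour arrays, 3 shExosc8 and 3 shControl. Per the file headers, the deposited spot intensity values are processed signals of Feature Extraction 10.7.3.1 (Agilent), with background subtraction and detrending within each array. The authors' deposited table holds the same intensity values and log2 fold changes with p-values from limma, per the submitters' processing notes, which name no normalization. Its direction, shExosc8 over shControl, follows from its own intensity columns. Probe coordinates are on mm9, per the file headers.

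Spots flagged as outliers were dropped, spots of 1 probe averaged on the log2 scale, and each array's 75th percentile subtracted. Probes entered the test (24836) if every array of shExosc8, of shControl or of both measured them well above background. The fit used limma 3.58.1 (two-sided) in R 4.3.3 and was tested on simulated data. The 11 member probes among them were also tested on their own in a fit over all 24836, of which 14.7% were called higher. Probes were named through RefSeq accessions or symbols.

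The 6 arrays shared 1 slide and 1 scan. The share of spots well above background was 67.3% on shControl replicate 2 and 43.1% to 49.3% on the other arrays. Precision is limited by the number of arrays. Members, lists and rules were chosen with earlier results of these data known. Genes named beside the members were the 3 with the smallest p among those called in each direction of a list, nearest neighbours, and the 6 closest profiles. Other names, such as members of a list that did not pass, were added after values were seen. A few single genes, 1 of the 6 closest profiles among them, are not reported here.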

Additional observations from a re-analysis of the deposited data

How the results depend on the processing

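All 9 platelet adhesion genes stayed called upward under all 17 alternatives, and 9 to 11 of the 11 tested probes did. The count of all called genes, 5439, was 9167 with no normalization between arrays, 1815 with no filter on dim probes (more genes tested) and 537 with the slide column as a block, a fit in which the 2 arrays alone in their columns carry no weight. Leaving out 1 array in turn gave 54 to 86 called list genes and, of all genes, 2355 (without shExosc8 replicate 1) to 8418 (without shExosc8 replicate 3), so each of the 6 arrays moved that count by over 1.5 times. It was 7363 without shExosc8 replicate 3 and shControl replicate 2 together, chosen after seeing the data. Called genes of the lists numbered 73, and 34 with the slide column as a block. With the replicate number as a block 5633 genes, 80 list genes and all 9 members were called. The reported fit did not take the numbers as pairs, and whether they mark pairs is not known. Deviations of same-numbered arrays correlated at 0.091, 0.245 and 0.340, and those of differently numbered arrays at -0.291 to 0.157. The shExosc8 replicates 2 and 3 correlated best with the control of their own number, and shExosc8 replicate 1 with shControl replicate 2. The folds of Selp and Gp6 were lower with normexp, which was run with an added offset of 50. Their probes were the dimmest of the 9 in shControl, with means of 1.14 and 3.16%. The cause of the lower folds was not tested.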
